A study of Mus musculus with 6 samples.

Results

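The complement genes described here are 9 genes of the deposited table of 50559 genes, taken by their symbols: C1qa, C1qb, C1qc, C3, C4b, Cfp, Cfb, C3ar1 and C5ar1. All 9 were found, and all 9 had a mean of at least 1 CPM (reads per 1000000 reads assigned to genes), the minimum for testing. Lymph nodes of mice were compared between 2 groups of 3 samples, which the labels call Control and Naringin. The flavonoid naringin comes from grapefruit, and per the labels it was given every day in the food at 200 mg/kg before the inguinal (groin) nodes were removed. Strain, age, sex, genotype, length of feeding and the diet of the controls are not stated in the labels. The labels also do not state whether the samples within a group are separate animals, so the p-values reflect the spread between samples, part of which may be technical.

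Complement is a set of proteins that tag microbes, immune complexes and dying cells. In the classical pathway the recognition protein C1q binds antibody or a dying cell, and its attached proteases split C4 and C2. In the alternative pathway factor B and properdin build up an enzyme that splits C3. All routes meet at C3, whose fragments coat the target, while the small fragments C3a and C5a signal through receptors on myeloid cells. Much circulating complement comes from the liver, but C1q is made mainly by macrophages and dendritic cells, properdin (Cfp) by myeloid cells, and C3, C4 and factor B also by fibroblastic stroma. A lymph node holds resident macrophages in its sinuses and a meshwork of reticular stroma, so both kinds of source lie within the tissue measured.

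The 6 libraries held 13074180 to 14976422 reads. Markers of lymphocytes, which define the tissue, were high in each: 7 B cell markers summed to 3308 to 4153 CPM and 7 T cell markers, of which Trac is listed at 0, to 1312 to 1729.8 CPM. Control 3 stood apart from the rest. Its chi-square per degree of freedom against each of the others was 39.3 to 61.6, and that of the 10 pairs without it 7.68 to 27.7 (genes with 20 or more reads in a pair). Fitted log2 folds between the groups are therefore also given without Control 3.

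With naringin, none of the 9 genes showed a difference from Control larger than the spread between libraries. In limma on log2(CPM + 1), 0 of 14873 genes passed an adjusted p of 0.05, which is a background of 0%. The adjusted p of every member was 0.9996. An unadjusted p under 0.05 was reached by 213 genes, or 1.43% of those tested, and by 0 members. Naringin libraries had a higher mean in 4 of the 9 members and a lower mean in 5. The median log2 fold was -0.04, against 0.025 over all genes tested. Without Control 3, 8 of the 9 members had a higher mean with naringin and the median log2 fold was 0.27. In that fit 0 members reached an unadjusted p under 0.05, against 9.4% of all genes. Groups did not overlap in 840 genes, or 5.65% of those tested, and in 0 members. What did differ was the level from library to library, in a pattern that the C1q genes and properdin shared closely and that C3, C4b and factor B shared less closely.

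Upstream sequences are shown for C1qb and C1qc, which lie next to each other on chromosome 4 and kept the most even ratio of the ratios computed, and for C3, the most abundant member by CPM. They are the 250 bases before the annotated start, on the gene's strand, from RefSeq on build GRCm38.p6. The deposited values were made on mm39, so these coordinates do not apply to that build. The table of promoters matched 6 of the 9 members: C1qb, C1qc, C3, Cfp, C3ar1 and C5ar1. Capitals in C1qb and C1qc mark GAGGAA, the core recognised by the myeloid factor PU.1, on either strand, and capitals in C3 mark TTGCNNAA, a form of the C/EBP site.
C1qb, chr4:136886201-136886450, minus strand: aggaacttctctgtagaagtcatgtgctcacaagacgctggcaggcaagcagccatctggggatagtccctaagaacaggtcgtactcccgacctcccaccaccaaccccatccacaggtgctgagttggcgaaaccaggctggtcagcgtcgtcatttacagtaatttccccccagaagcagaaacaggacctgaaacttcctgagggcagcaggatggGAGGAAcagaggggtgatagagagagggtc
C1qc, chr4:136892915-136893164, minus strand: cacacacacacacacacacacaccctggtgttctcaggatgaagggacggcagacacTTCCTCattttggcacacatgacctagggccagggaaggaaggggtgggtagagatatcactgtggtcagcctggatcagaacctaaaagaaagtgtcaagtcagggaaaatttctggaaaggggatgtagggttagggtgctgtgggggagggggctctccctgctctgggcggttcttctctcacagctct
C3, chr17:57228137-57228386, minus strand: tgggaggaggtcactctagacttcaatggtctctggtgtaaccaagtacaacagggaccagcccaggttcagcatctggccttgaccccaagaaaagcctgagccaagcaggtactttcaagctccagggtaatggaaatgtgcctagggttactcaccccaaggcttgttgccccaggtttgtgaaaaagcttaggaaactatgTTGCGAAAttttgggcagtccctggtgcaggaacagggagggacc
GAGGAA was found 30 bases before the start of C1qb and, on the opposite strand, 193 bases before that of C1qc, and in 0 of the other 4 windows. It occurs in 23.4% of 32536 windows of the same length. TTGCNNAA was found once, 45 bases before the start of C3, and occurs in 9.57% of windows. TATAAA, searched on the gene's strand, was 235 bases before the start of C3ar1 and in 7.55% of windows. TTCNNNGAA, a form of the STAT site, was also searched, on either strand. It was in 0 of the 6 windows and occurs in 7.04% of windows. A match is a run of letters and not a measured binding site.

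The 3 C1q genes encode the A, B and C chains, which are assembled in equal numbers into the C1q protein. C1qa stood at 224, 224 and 506 CPM in Control 1, 2 and 3 and at 369, 277 and 189.9 CPM in Naringin 1, 2 and 3. Control 3 was highest and Naringin 3 lowest, and the groups overlapped. The means were 318 ± 163 CPM for the controls and 278 ± 89.4 CPM for the naringin libraries (SD over 3 libraries). This is a log2 fold of -0.13 ± 0.35 (SE) with a 95% interval of -0.94 to 0.67.

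C1qb stood at 208, 194 and 461 CPM in the controls and at 377, 248 and 155 CPM with naringin. C1qc stood at 219, 221 and 478 CPM and at 404, 276 and 167 CPM. The order of libraries was nearly that of C1qa in both genes, with Control 3 on top, Naringin 1 next and Naringin 3 at the bottom. Their log2 folds were -0.12 ± 0.40 and -0.10 ± 0.38 (SE, n = 3 each). Without Control 3 the log2 folds of C1qa, C1qb and C1qc turned to 0.26, 0.28 and 0.27, so their direction rested on that library. Without Naringin 3 they were 0.12, 0.21 and 0.23. The confidence intervals of the fold ran from 0.522 to 1.6 for C1qa, 0.492 to 1.73 for C1qb and 0.508 to 1.7 for C1qc, and folds between these bounds were not excluded.

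**Figure D1:**
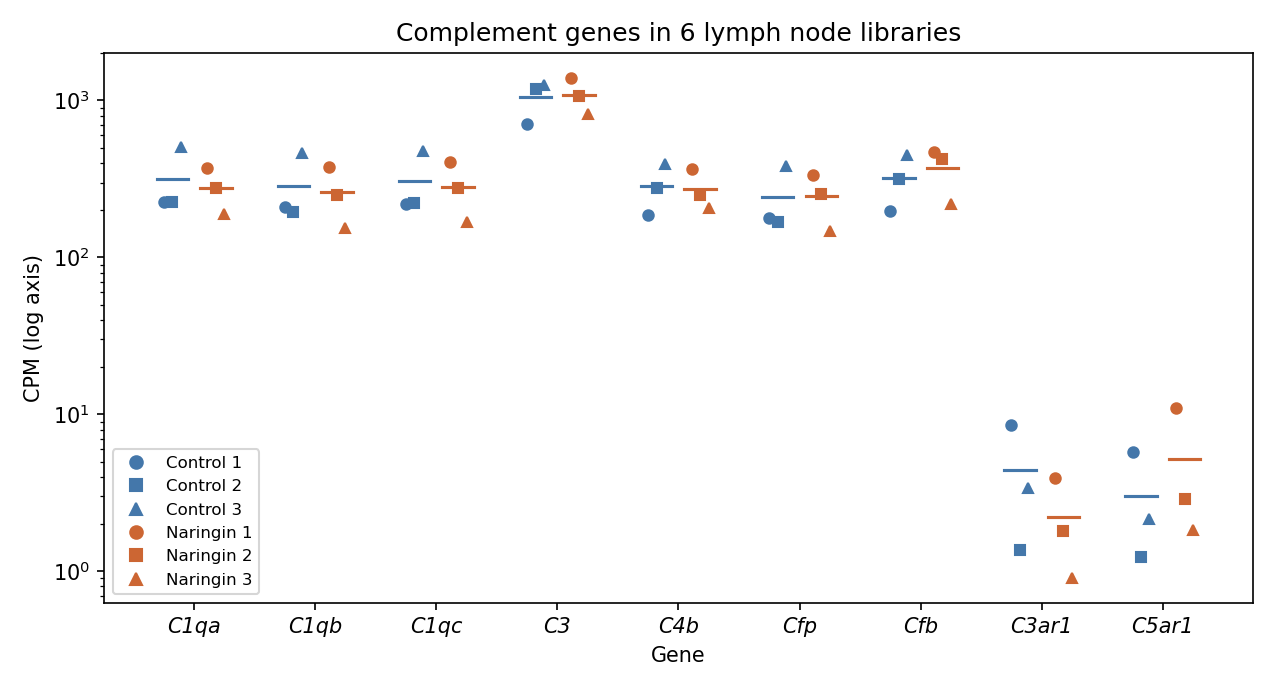
CPM on a log axis for the 9 complement genes in each library, with Control in blue, Naringin in orange, a symbol for each replicate number and a bar at each group mean. The groups overlap in all 9 genes. The 7 components lie between 148 and 1391 CPM and the receptors C3ar1 and C5ar1 between 0.911 and 10.9 CPM.

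While the sum of the 3 C1q genes was 512 CPM at its lowest, in Naringin 3, and 1444 CPM at its highest, in Control 3, a 2.82-fold range, the chains kept almost the same proportion within a library. C1qc over C1qb was 1.05, 1.14 and 1.04 in the controls and at 1.07, 1.11 and 1.08 with naringin, a 1.10-fold range. C1qa over C1qb was less even, at 1.08, 1.16 and 1.10 in the controls and at 0.977, 1.11 and 1.23 with naringin, a 1.26-fold range with Naringin 1 lowest and Naringin 3 highest. The components were read deeply, with 2107 to 20764 reads per gene and library, where counting alone gives an SD of 2.18% at the lowest. That figure covers counting error only.

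Properdin, the product of Cfp, stabilises the enzyme that splits C3. Cfp stood at 177, 169 and 379.6 CPM in the controls and at 337, 252 and 148 CPM with naringin, so that Control 3 and Naringin 1 were again highest and Naringin 3 lowest. The means were 242 ± 119 and 246 ± 94.9 CPM (SD over 3 libraries), a log2 fold of 0.05 ± 0.37 (SE), or 0.42 without Control 3. It turned to -0.13, -0.16, -0.22 and -0.01 without Control 1, Control 2, Naringin 1 and Naringin 2. Relative to summed C1q, Cfp was at 0.273, 0.265 and 0.263 in the controls and at 0.293, 0.314 and 0.289 with naringin, and on this ratio the groups did not overlap. The ratio was one of 13 computed and was noticed after its values were seen, so it is given with no test. Of the 14870 other genes tested, 0.989% had groups that did not overlap when divided by summed C1q in the same way. Summed C1q itself varied 2.82-fold with overlapping groups, which most genes divided by it take on. That share therefore does not show how unusual the Cfp ratio is.

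**Figure D2:**
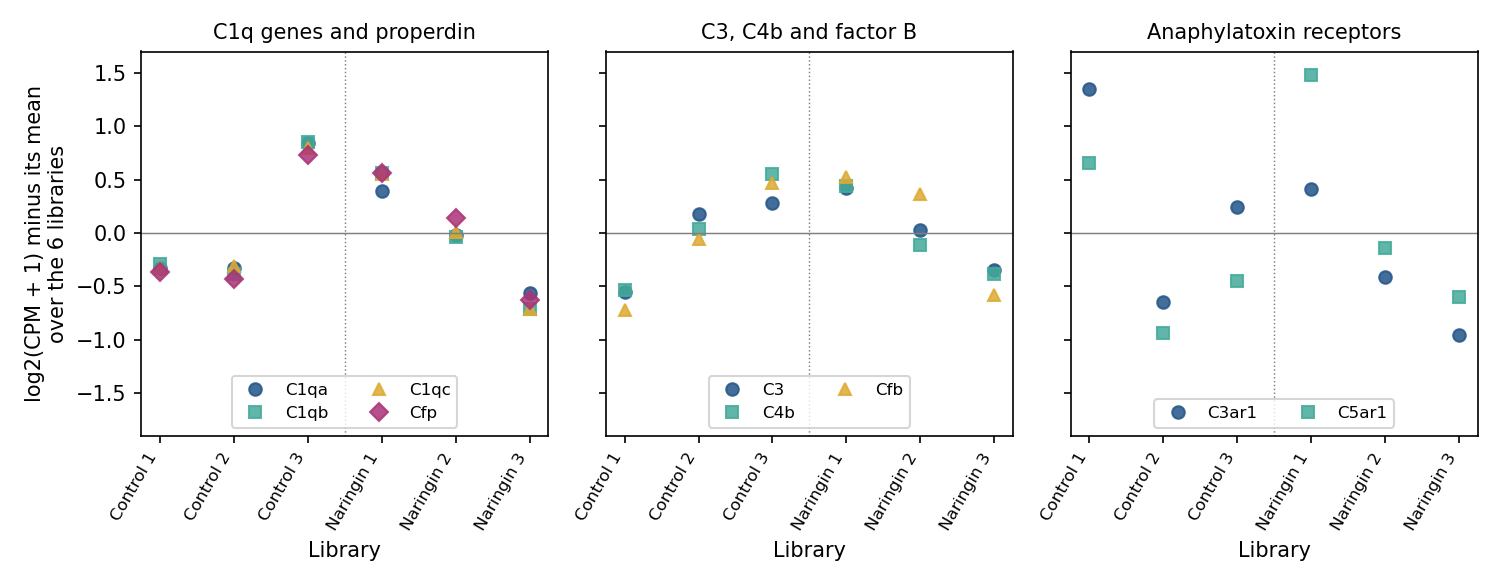
Deviation of log2(CPM + 1) from its mean over the 6 libraries (vertical axis) for each library (horizontal axis, controls left of the dotted line). The 3 C1q genes and Cfp nearly coincide in each library, C3, C4b and Cfb follow a similar course with Naringin 1 and Control 3 high, and the receptors C3ar1 and C5ar1 have their highest values in Control 1 and Naringin 1.

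Markers of several cell types were uneven across the libraries in the same way. The 16 macrophage markers summed to 3831, 4383 and 6821 CPM in the controls and to 7937, 5787 and 3254 CPM with naringin. The largest contribution was that of the lysozyme gene Lyz2, with a mean of 2666 CPM. Of the 15 tested markers 11 had a higher and 4 a lower mean with naringin. The adjusted threshold was passed by 0, and none of the 16 was at 0 in every library. Without Control 3, 14 of the 15 had a higher mean, and the median log2 fold was 0.30, against 0.08 with that library. The adjusted threshold was again passed by 0. Summed C1q over summed macrophage markers was 0.170, 0.146 and 0.212 in the controls and at 0.145, 0.138 and 0.157 with naringin, a 1.53-fold range against the 2.82-fold range of C1q itself. Over Cd68 alone, a lysosomal protein of macrophages, it ranged from 7.98 to 11.3. Control 3 had the highest ratio on both scales. In bulk tissue, fewer cells of a type and less RNA per cell cannot be told apart.

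Neutrophils, which store properdin, and mast cells also varied with these genes. The 10 neutrophil markers, led by S100a9, summed to 69.1, 75.1 and 304 CPM in the controls and to 304, 175 and 62.2 CPM with naringin. The 10 mast cell markers, led by the protease Mcpt4, summed to 85, 130.3 and 381 CPM and to 328, 277 and 52.6 CPM. None of these markers was at 0 in every library. In both lists Control 3 and Naringin 1 were highest and Naringin 3 lowest, as for C1q and Cfp. The part of these cells in the levels of C1q and Cfp was not tested.

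Among the genes whose course over the 6 libraries was most like that of the C1q genes were Slc48a1, a haem transporter, Nupr1, a stress-response factor, Psap, the precursor of lysosomal saposins, and Pdia6, a folding enzyme of the endoplasmic reticulum. Their Pearson's r with the mean C1q profile was 0.994 to 0.998 over 6 libraries, among 9709 genes averaging 10 CPM or more, and 133 of those genes reached 0.95. Psap stood at 2008, 1957 and 2762 CPM in the controls and 2560.2, 2175 and 1748 CPM with naringin. For comparison, r with the C1q profile was 0.98 for Cfp, 0.89 for C4b, 0.83 for Cfb, 0.73 for C3, 0.36 for C3ar1 and 0.35 for C5ar1. These values are a description of 6 libraries that include one standing apart, with no test.

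C3, the protein on which all pathways meet, was the most abundant member by CPM. It stood at 709, 1179.7 and 1263 CPM in the controls and at 1391, 1062 and 818 CPM with naringin. Control 1 was lowest and Naringin 1 highest, and the groups overlapped. The means were 1051 ± 298 and 1090.2 ± 288 CPM (SD over 3 libraries), a log2 fold of 0.06 ± 0.27 (SE) with a 95% interval of -0.55 to 0.68.

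C4b encodes the C4 protein, the substrate of the C1 proteases. It stood at 186, 277 and 396 CPM in the controls and at 365, 249.6 and 206 CPM with naringin, a log2 fold of -0.04 ± 0.30 (SE, n = 3 each). Without Control 3 the log2 folds of C3 and C4b were 0.22 and 0.23. That of C3 turned to -0.20 without Control 1 and -0.13 without Naringin 1, and that of C4b to 0.15 without Naringin 3 and 0.01 without Naringin 2. C4a, a close copy of C4b, was at 2.67 to 3.42 CPM, and the labels do not say how reads shared by the copies were counted, which leaves the split between them uncertain.

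Cfb encodes factor B, the protease of the alternative pathway that splits C3. It stood at 198, 314 and 452 CPM in the controls and at 471, 421 and 219 CPM with naringin. Naringin 1 was highest and Control 1 lowest, and the groups overlapped. The means were 321 ± 127 and 370.1 ± 133 CPM (SD over 3 libraries), a log2 fold of 0.21 ± 0.36 (SE), the highest of the 7 components. It was 0.49 without Control 3 and 0.55 without Naringin 3, and turned to -0.10 without Control 1 and -0.0037 without Naringin 1.

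C2, the classical pathway counterpart of factor B and its neighbour on chromosome 17, was at 32.3, 58.9 and 87.1 CPM in the controls and at 76.0, 59.6 and 36.1 CPM with naringin, a log2 fold of -0.01 ± 0.37 (SE), or 0.32 without Control 3. Factor B is also known as an interferon-inducible gene. The 12 interferon response genes summed to 854, 727 and 862 CPM in the controls and to 1016, 1317 and 919 CPM with naringin. All 12 had a higher mean with naringin, as did 56.7% of all genes tested, with a median log2 fold of 0.75, and 0 passed the adjusted threshold. An unadjusted p under 0.05 was reached by 7 of the 12, against 1.43% of all genes, and the groups did not overlap in 3, against 5.65%. The list was chosen with earlier results of these data known, so these counts are a description with no test. Without Control 3, all 12 again had a higher mean and 5 reached an unadjusted p under 0.05, against 9.4% of all genes in that fit. In Naringin 3 the interferon sum lay above all controls, while Cfb was below all libraries but Control 1. Cfb over C3, one of 13 ratios computed, was 0.279, 0.266 and 0.358 in the controls and at 0.338, 0.396 and 0.268 with naringin. Both this ratio and the interferon sum were highest in Naringin 2 and lowest in Control 2. The other libraries did not keep the same order. The ratio was next to lowest in Naringin 3 and next to highest in Control 3. The part of interferon in the level of Cfb was not tested.

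C3, C4b and Cfb kept their proportions less evenly than C1qb and C1qc. C4b over C3 was 0.262, 0.235 and 0.313 in the controls and at 0.263, 0.235 and 0.252 with naringin, a 1.34-fold range, and Cfb over C3 had a 1.49-fold range. The 16 reticular and fibroblast markers, led by the chemokine Ccl21a, summed to 1967, 2508 and 3435 CPM in the controls and to 3592, 2791 and 2158 CPM with naringin. Of these markers 11 had a higher and 5 a lower mean with naringin. The adjusted threshold was passed by 0, and none was at 0 in every library. An unadjusted p under 0.05 (limma) was reached by 2, against 1.43% of all genes. The groups did not overlap in 2, against 5.65%. Without Control 3 all 16 had a higher mean, so the split rested on that library. In that fit 2 reached an unadjusted p under 0.05, against 9.4% of all genes. The list was chosen with earlier results known, so these counts have no test. The sum of C3 and C4b over that of the stroma markers ran from 0.455 in Control 1 to 0.581 in Control 2, a 1.28-fold range, while the sum of C3 and C4b ran over a 1.96-fold range, from 895 to 1756 CPM. The markers of both cell types followed both sets of genes. The median r of the macrophage markers was 0.83 with the C1q profile and 0.70 with that of C3 and C4b, and that of the stroma markers was 0.76 and 0.71 (15 markers of each list averaging 10 CPM or more, 6 libraries, a description with no test). The part of stromal or macrophage content in these levels was not tested.

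**Figure D3:**
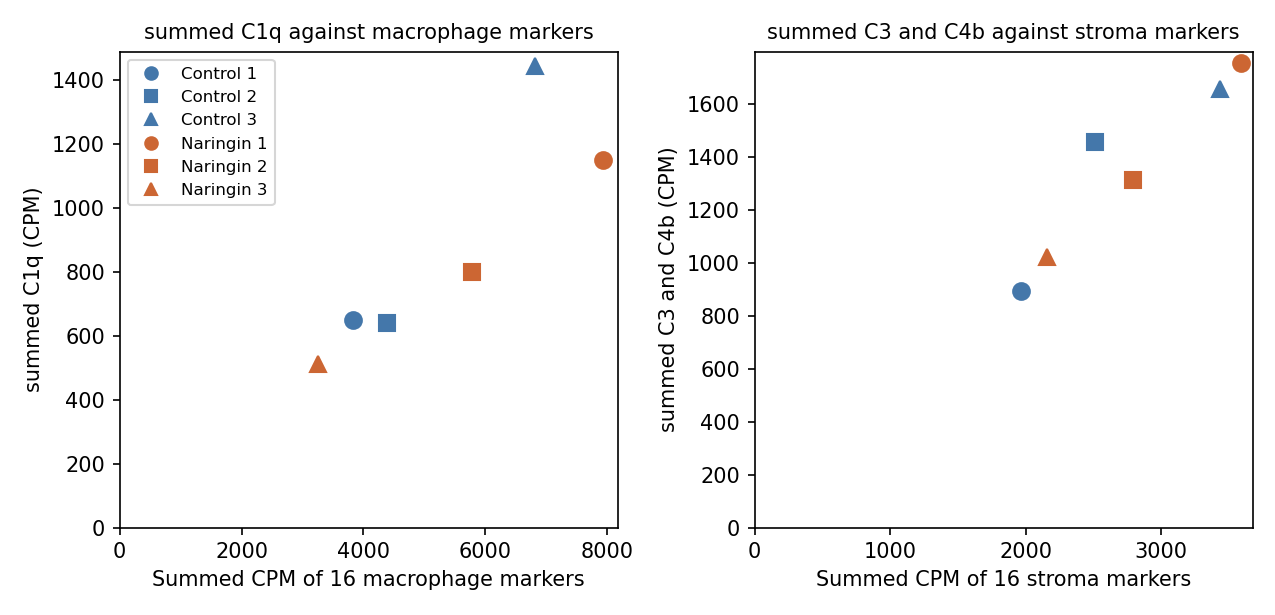
Left, summed CPM of C1qa, C1qb and C1qc against the summed CPM of 16 macrophage markers. Right, summed CPM of C3 and C4b against that of 16 stroma markers, each point a library, both axes starting at 0. Control 3, at 1444 CPM of C1q, lies above Naringin 1, at 1149.7 CPM, although its macrophage sum is lower (6821 against 7937 CPM).

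C1q was next set against C3 and C4b within each library, a ratio that no scaling of a library can move. Summed C1q over summed C3 and C4b was 0.727, 0.439 and 0.871 in the controls and at 0.655, 0.611 and 0.50 with naringin. Control 2 was lowest and Control 3 highest, so the naringin libraries lay within the control range. The mean difference of the log2 ratio, Naringin minus Control, was -0.16, less than the pooled SD of 0.39 within groups. It was 0.05 without Control 3 and -0.44 without Control 2. In Control 2 C1q lay furthest below C3 and C4b. C1q was at 639 CPM, close to Control 1, and C3 and C4b were at 1456 CPM, between Naringin 2 at 1312 CPM and Control 3 at 1659 CPM.

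The genes most like the mean profile of C3 and C4b were Npr1, a natriuretic peptide receptor, Pttg1ip, Akr1e1, an aldo-keto reductase, Slc38a10 and the kinesin Kifc3. Their Pearson's r was 0.986 to 0.993 over the 6 libraries, and 58 of 9709 genes reached 0.95. Npr1 stood at 17.7, 27.3 and 31.9 CPM in the controls and at 34.2, 23.6 and 18.6 CPM with naringin. Its highest value lay in Naringin 1 and its lowest in Control 1, as for C3.

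**Figure D4:**
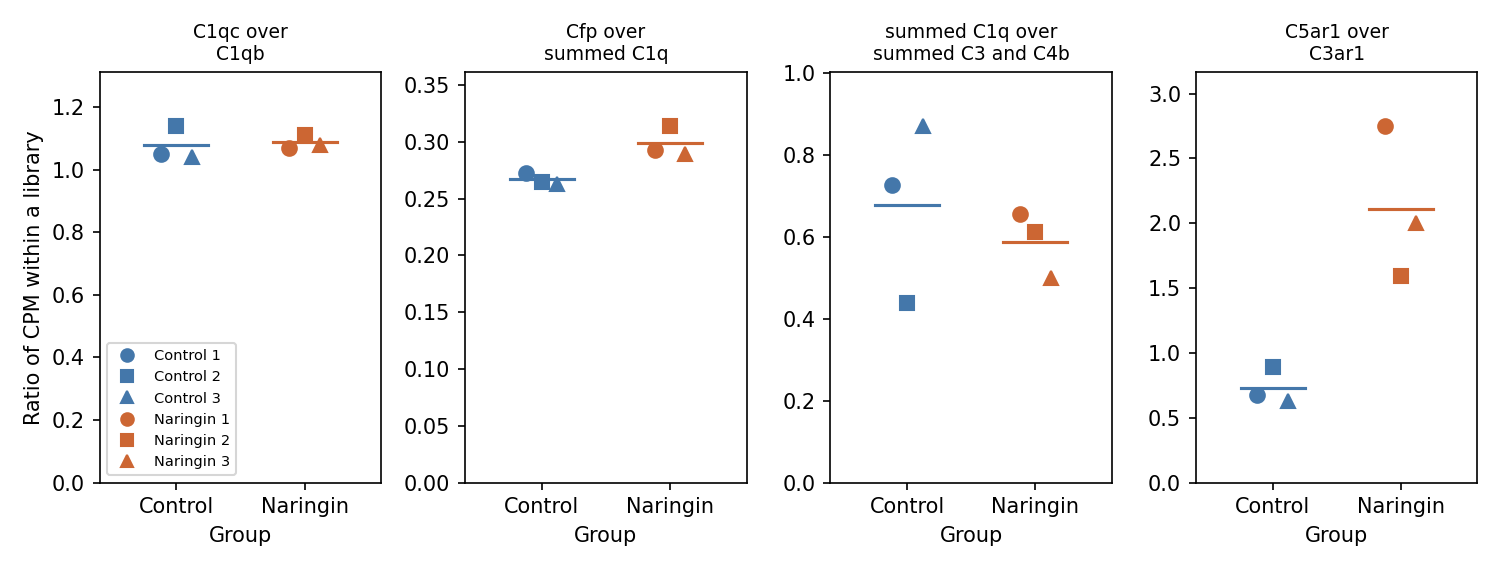
Ratios of CPM within a library by group, from 0 upward, with a point per library and a bar at the group mean. C1qc over C1qb stays between 1.04 and 1.14, C1q over C3 and C4b overlaps between groups, and Cfp over C1q and C5ar1 over C3ar1 have groups that do not overlap.

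Across genes, levels were compared per kilobase of exon, with lengths over all annotated exons from GENCODE M21. C1qa had the highest mean at 287 ± 115 CPM per kb, then C1qb at 252 ± 109.7, C3 at 208 ± 51.2, C1qc at 152 ± 62.6, Cfp at 140.4 ± 55.5, Cfb at 122 ± 42.3 and C4b at 49.1 ± 14.9 CPM per kb (SD over 6 libraries). On this scale C3 lay between the C1q chains rather than above them. The place of C1qc below C3 depends on its exon length of 1931 bases, against 1040 for C1qa and 1088 for C1qb. The ranges over libraries of neighbours in this order overlapped down to Cfb. C1qa was above C1qb in all 6 libraries, and Cfb was above C4b without overlap. C5ar1, at 1.6 ± 1.43, and C3ar1, at 0.772 ± 0.649 CPM per kb, came last, and their ranges overlapped each other but not that of C4b.

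The 7 components varied more between libraries of one group than most genes as abundant. Among 2194 tested genes averaging 100 CPM or more, the median within-group SD of log2(CPM + 1) was 0.19. It was 0.67 for C1qb, 0.64 for C1qc, 0.63 for Cfp, 0.59 for C1qa and Cfb, 0.49 for C4b and 0.42 for C3. Only 28 of the 2194 genes had a larger SD than C1qb, and 185 a larger one than C3. The highest over the lowest library was 2.98-fold for C1qb and 1.96-fold for C3, against a median of 1.40-fold over these genes.

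The anaphylatoxin receptors are carried by macrophages, neutrophils and mast cells and were low in the node. C3ar1, the receptor of C3a, stood at 8.49, 1.37 and 3.41 CPM in the controls (111, 19 and 51 reads) and at 3.95, 1.80 and 0.911 CPM with naringin (59, 27 and 13 reads). Control 1 was highest by far, with an exact Poisson 95% interval of 6.98 to 10.2 CPM against 3.01 to 5.10 CPM in Naringin 1, the next. These intervals cover counting error only. The means were 4.42 ± 3.67 and 2.22 ± 1.56 CPM (SD over 3 libraries), a log2 fold of -0.63 ± 0.52 (SE) with a 95% interval of -1.83 to 0.56. It was -0.12 without Control 1 and -0.67 without Control 3.

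C5ar1, the receptor of C5a, stood at 5.74, 1.23 and 2.14 CPM in the controls (75, 17 and 32 reads) and at 10.9, 2.87 and 1.82 CPM with naringin (162, 43 and 26 reads). Naringin 1 was highest and Control 1 next, with exact Poisson 95% intervals of 9.25 to 12.7 and 4.51 to 7.19 CPM. The log2 fold was 0.49 ± 0.57 (SE, n = 3 each). It was 0.38 without Control 3 and turned to -0.13 without Naringin 1. Within each library, C5ar1 over C3ar1 was 0.676, 0.895 and 0.627 in the controls and at 2.75, 1.59 and 2.00 with naringin. No counting interval was computed for this ratio, and some of its values rest on few reads. It was 17 over 19 reads in Control 2, 43 over 27 in Naringin 2 and 26 over 13 in Naringin 3. The Poisson intervals of the 2 genes overlapped in every library but Naringin 1. Such overlap bears on whether the 2 genes differ within a library, and not on how far the groups lie apart. With no interval for the ratio itself, its separation is uncertain.

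This ratio, too, was noticed after its values were seen and is one of the 2 of 13 ratios whose groups did not overlap, so it has no test. When each of 14872 other genes was divided by C3ar1, 0.699% had groups that did not overlap. C3ar1 itself varied 9.32-fold with overlapping groups, and most genes divided by it take on that overlap. The share therefore does not show how unusual the ratio is. The receptors did not follow C1q: Control 1, high in both receptors, was among the lower libraries for C1q, and Control 3, highest for C1q, lay in the middle for both receptors. Control 1 was also the library with the most fat RNA, with 10 adipocyte markers at 107 CPM against 37.3 to 62.6 CPM in the others, and the neutrophil sum was 69.1 CPM there. The part of these cells in the receptor levels was not tested.

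The rest of the cascade was looked at next. Of 47 further genes of the cascade, its regulators and receptors, all in the table, 31 were tested, 17 with a higher and 14 with a lower mean with naringin. The median log2 fold was 0.01, and 0 passed in either direction, adjusted or at an unadjusted p under 0.05, against 1.43% of all genes at the latter. The groups did not overlap in 0 of the 31, against 5.65% of all genes. Without Control 3, 17 again had a higher mean and the median log2 fold was 0.04. In that fit 1 of the 31 reached an unadjusted p under 0.05, against 9.4% of all genes, and 0 passed the adjusted threshold.

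Of the classical and lectin pathway, C1s1, a C1 protease, was the most abundant, at 164 ± 42.4 and 193 ± 61.2 CPM in the 2 groups (SD, control first, n = 3 each), and the scavenger collectin Colec12 had the smallest p, with a log2 fold of 0.38 ± 0.36 (SE), or 0.54 without Control 3. Cfd, the adipocyte protease that activates factor B, stood at 24.6, 7.16 and 5.75 CPM in the controls and at 7.10, 7.95 and 1.75 CPM with naringin, highest in Control 1 like the adipocyte markers. Its log2 fold was -0.94 ± 0.59 (SE), or -1.31 without Control 3.

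The terminal pathway, which builds the membrane pore, was scarce. C6 averaged 24.6 ± 11.8 and 18.9 ± 12.5 CPM (SD, n = 3 each), C7 had the smallest p of the class with a log2 fold of -0.50 ± 0.32 (SE), or -0.26 without Control 3, and C8b and C9, named after their values were seen, had 0 reads in all 6 libraries. The lectins Mbl1 and Mbl2, chosen in the same way, also had 0 reads. A count of 0 allows up to 3 reads, or 0.0349 CPM over the 86049892 reads of all libraries.

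Among the regulators, Clu, which keeps the pore from forming, stood at 822, 1193 and 1709 CPM in the controls and at 1631, 1273 and 1032 CPM with naringin, highest in Control 3 and Naringin 1 like C4b. Csmd1 had the smallest p of the class, with a log2 fold of 0.32 ± 0.36 (SE, n = 3 each), also 0.32 without Control 3. Among the other receptors, Calr, a chaperone that also binds C1q, averaged 765 ± 40.4 and 766 ± 92.2 CPM (SD), and Itgax, a subunit of complement receptor 4, had the smallest p with a log2 fold of -0.18 ± 0.15 (SE), or -0.14 without Control 3. Cr2, the C3d receptor of B cells and follicular dendritic cells, was named after its values were seen. It stood at 174, 219 and 75.7 CPM in the controls and 185, 222 and 163 CPM with naringin, and its lowest library was Control 3, the highest for C1q.

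**Figure D5:**
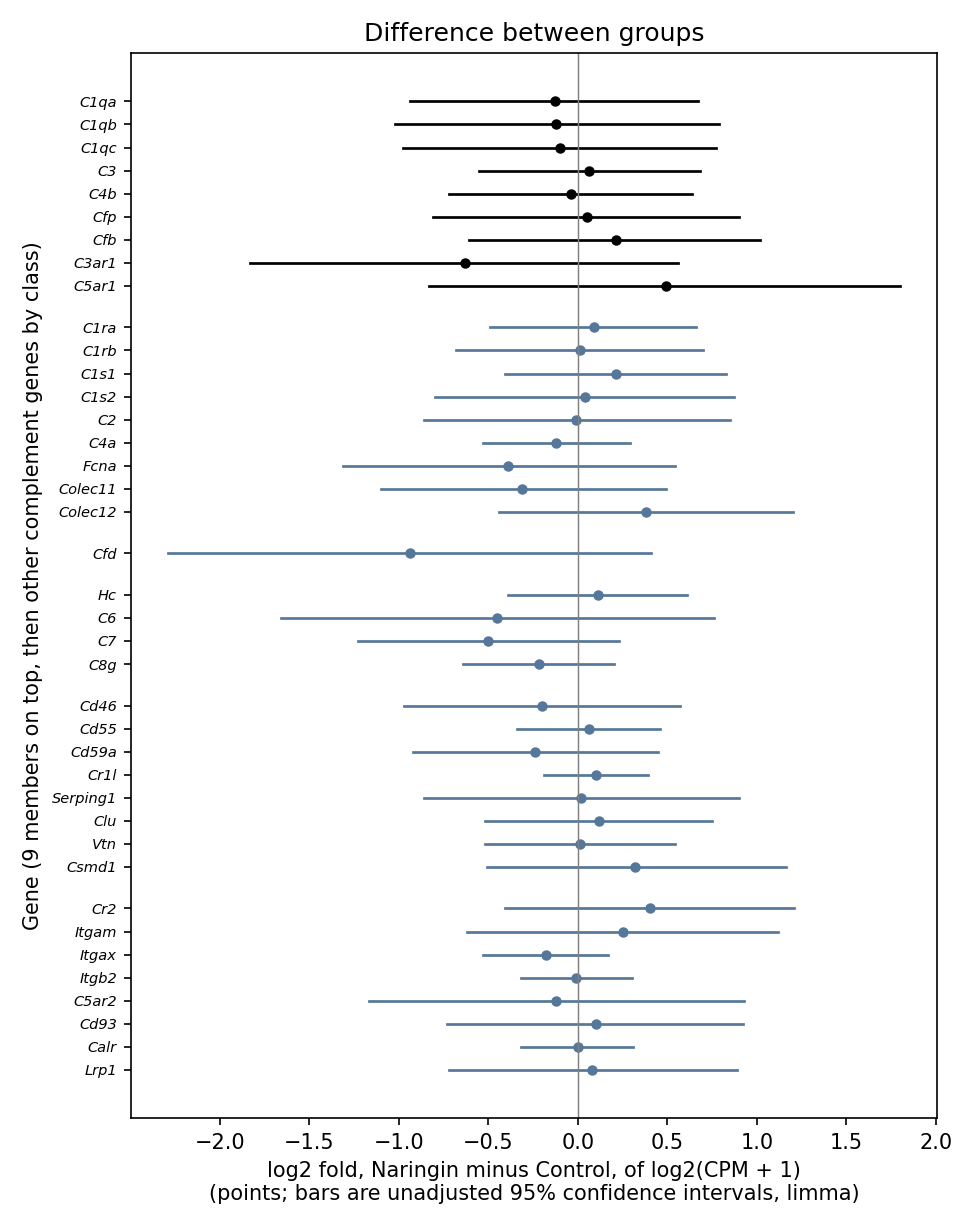
Log2 fold of log2(CPM + 1), Naringin minus Control, with unadjusted 95% confidence intervals from limma, for the 9 members on top in black and other tested complement genes below by class. Every interval shown includes 0, and those of C3ar1, C5ar1 and Cfd are among the widest.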

How the data were processed

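RNA sequencing of 6 mouse lymph node samples was analysed from 1 deposited table. Per the submitters' processing notes, Trimmomatic 0.39, STAR 2.7.9a, featureCounts of Subread 1.6.0, edgeR 3.40.0 and build mm39 were used; the gene annotation and strand setting are not stated there, so overlapping genes may share reads. The deposited values are CPM: the authors scaled each library to a sum of 1000000. The columns carry the numbers that open the sample titles and were matched by them. Values above 0 were whole multiples of 1 read (100% within 0.01 of a read), worth 0.0668 to 0.0765 CPM.

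Genes averaging 1 CPM or more (14873 of 28727 with a read) were tested on log2(CPM + 1), so folds of low genes are understated. limma 3.58.1 (R 4.3.3) was used with trend and robust moderation, 2-sided, Benjamini-Hochberg adjusted over all genes tested. SE and 95% intervals are limma's moderated ones. The steps were tested on simulated reads. edgeR 4.0.16 and DESeq2 1.42.0 were run on the recovered reads as alternatives, beside a replicate block, omission of each library, and changes of scaling, filter and pseudocount.

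The members and lists were chosen with earlier results of these data known. All 9 members are named; of other complement genes, the most abundant and the one with the smallest p per class; of each marker list described for its cells, the most abundant gene; and for likeness the 5 genes with the highest Pearson correlation, leaving out predicted genes and antigen receptor segments. C2, C4a, Cd68, Cr2, Trac, C8b, C9, Mbl1 and Mbl2 are named outside this rule. Some genes that it takes are not reported here. Same-numbered samples did not deviate together, so the numbers were not used as pairs.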

Additional observations from a re-analysis of the deposited data

How the results depend on the processing

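The direction of all members but C3ar1 changed on leaving out some single library. The count of genes past the threshold, 0, was 3 with DESeq2 and 0 to 1 on leaving out 1 library, the 1 without Control 3; the cause was not tested. No member was among them, and the count of members was 0 under every alternative. Of 97 member folds under alternatives with all libraries, 95 kept their direction. Part of these could not change: the filter, limma's moderation and the replicate block leave a gene's fold as it was. Only changes of scaling, pseudocount and tool could turn a fold. Cfp turned to -0.01 with edgeR and -0.02 with DESeq2.

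On leaving out 1 library the log2 fold ran from -0.36 to 0.26 for C1qa, -0.43 to 0.28 for C1qb, -0.41 to 0.27 for C1qc, -0.20 to 0.25 for C3, -0.31 to 0.23 for C4b, -0.22 to 0.42 for Cfp, -0.10 to 0.55 for Cfb, -1.12 to -0.12 for C3ar1 and -0.13 to 0.94 for C5ar1. The median of the 9 members ran from -0.27 to 0.27, that of the C1q genes from -0.41 to 0.27, and the difference in balance of C1q to C3 and C4b from -0.44 to 0.05. With the replicate number as a block the log2 folds were those without it, for example 0.21 for Cfb, and 0 genes passed. The correlation of deviations between same-numbered samples was -0.26, -0.02 and -0.27. Omission of Control 3 for genes other than the members was chosen after seeing the data; C2 turned to 0.32. With a mean of at least 5 CPM, C3ar1 and C5ar1 were not tested.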
